A study of Macaca mulatta with 95 samples.

Results

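Solute carrier genes, whose symbols begin with SLC and a number, encode membrane proteins that move amino acids, sugars, nucleotides, vitamins, lipids, metals and ions. Of the 16049 genes in the deposited table of rhesus monkey embryo cells, 327 carried such a symbol. The 110 genes described here were chosen by their measured level, a mean of at least 5 RPKM (reads scaled to transcript length and sequencing depth) over all 95 cells, with SLC2A1 left out. The genes just above that line were SLC35B3 at 5.11, SLC46A1 at 5.14 and SLC25A23 at 5.25 RPKM, and those just below it were SLC25A24 at 4.93, SLC13A5 at 4.89 and SLC38A1 at 4.69 RPKM. Because the mean over all cells chose them, their overall levels are given as a description.

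Cells take up amino acids mainly through the SLC1, SLC7 and SLC38 families, and SLC3A2 is the heavy chain that brings several SLC7 carriers to the cell surface. Most SLC25 carriers sit in the inner mitochondrial membrane and exchange ADP, ATP, phosphate and metabolites with the cytosol. Most characterised SLC35 carriers feed nucleotide sugars to the endoplasmic reticulum and Golgi, SLC39 carriers bring zinc into the cytosol, and SLC30 carriers move it out of the cytosol or into vesicles. In the preimplantation embryo, ion, amino acid and sugar transport across the outer epithelium is part of how the blastocyst cavity forms and how the embryo is fed.

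Single cells were taken from embryos of Macaca mulatta fertilized and cultured in vitro in HECM-9 medium with serum, from the 16-cell stage at about day 3 to the hatched blastocyst at about day 7. The oocytes came from females stimulated with gonadotropins and had their cumulus cells removed. Live outer cells were marked with a PKH2 dye before the embryo was taken apart, and cells without dye were called inner. Poly(A) RNA of each cell was amplified and sequenced. Each title also carries a letter (A, B, D, G or H) that the labels do not explain.

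The 16-cell stage (about day 3) had 3 outer and 2 inner cells, all of letter B. The early morula (about day 4) had 5 outer and 5 inner cells of letter H, and the late morula (about day 4.5) 5 outer and 5 inner cells of letter D. The early blastocyst (about day 5) had 6 outer cells of letter A and inner cells of letters A (5), G (3) and H (2). The middle blastocyst (about day 5.5) had 5 outer cells of letter B and inner cells of letters B (4), G (4) and H (4). Inner cells only were taken later: 15 (G) and 4 (H) in the late blastocyst (about day 6), and 9 (G) and 9 (H) in the hatched blastocyst (about day 7). No label ties a cell to an animal, embryo or culture, so each group of cells counted as 1 sample and no test was made: an SD is the spread between cells. Letter and stage mostly coincide and cannot be told apart across letters, so both sides of the comparisons below carry the same letter except where stated. For 9 cells the title gives late and the source text gives hatched blastocyst (5 of letter G, 4 of letter H). They were kept as late.

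Between 35 and 86 of the 110 genes reached 1 RPKM in a cell, with a median of 61. Median numbers of all genes reaching 1 RPKM were 3279, 3893, 3719.5, 4711 and 6034 for letters A, B, D, G and H, and median solute carrier numbers were 44, 60.5, 51.5, 59 and 75. Reads recovered from the steps of the values summed to between 1.06 and 11.8 megareads per cell (median 6.14). This sum covers only 10761 of the 16049 genes, so the full depth is not given. One read was worth at most 0.238 RPKM in the 98 solute carrier genes whose reads could be recovered, so levels of a few hundredths of an RPKM rest on 1 or a few reads. Among markers of other cells the dissection could carry, the summed level of 7 cumulus cell genes stayed at or below 22.5 RPKM in every cell, with FSHR and PTX3 listed at 0 in all, and 3 sperm genes were listed at 0 in all. The fibroblast list of 5 genes summed to at most 417.3 RPKM in a cell, with LUM listed at 0 throughout. Of 5 blood genes the table held 2, which summed to at most 91.8 RPKM.

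The 110 genes spanned 33 families, and a few abundant members made up most of the total. Carriers of the mitochondrial SLC25 family (25 genes) held 59.6% of the summed RPKM, 18 SLC35 genes held 7.05%, 8 genes of the families SLC2, SLC5, SLC37 and SLC50 6.17%, 14 amino acid carrier genes 4.53% and 14 zinc carrier genes 3.41%. The 9 genes for ions and pH held 1.64%, and 10 genes of families for lipids, vitamins, nucleosides and organic ions held 3.07%. The symbols SLC9A3R1 and SLC7A6OS do not name carriers, the first being the scaffold protein NHERF1. Both together held 11.3%.

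The adenine nucleotide exchangers SLC25A5 and SLC25A6 had the highest means, 1832 ± 1056 and 1312 ± 1109 RPKM (SD, n = 95 cells). The mitochondrial phosphate carrier SLC25A3 reached 719 ± 359 RPKM and SLC25A39, a carrier needed for mitochondrial glutathione, 683 ± 719 RPKM. The scaffold gene SLC9A3R1 stood at 989 ± 759 RPKM. SLC2A3, the high-affinity glucose transporter, had 284 ± 286 RPKM and was highest at 1183 RPKM in an inner early morula cell. SLC35B1, which exchanges ATP and ADP across the endoplasmic reticulum membrane, had 225 ± 210 RPKM. SLC5A6, the sodium-dependent carrier of biotin and pantothenate, had 169 ± 144 RPKM, SLC3A2 160 ± 179 RPKM, the creatine carrier SLC6A8 129 ± 192 RPKM, the mitochondrial citrate carrier SLC25A1 121 ± 242 RPKM and the zinc importer SLC39A1 115 ± 131 RPKM. These 12 genes made up 76.3% of the total, and 34 of the 110 had a mean under 10 RPKM. In 13 genes every cell was above 0, and 9 genes were above 0 in under 50% of the cells. SLC25A5, SLC25A6 and SLC25A4 are close paralogs with many processed copies in primate genomes, so how reads were shared between them is uncertain.

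**Figure D1:**
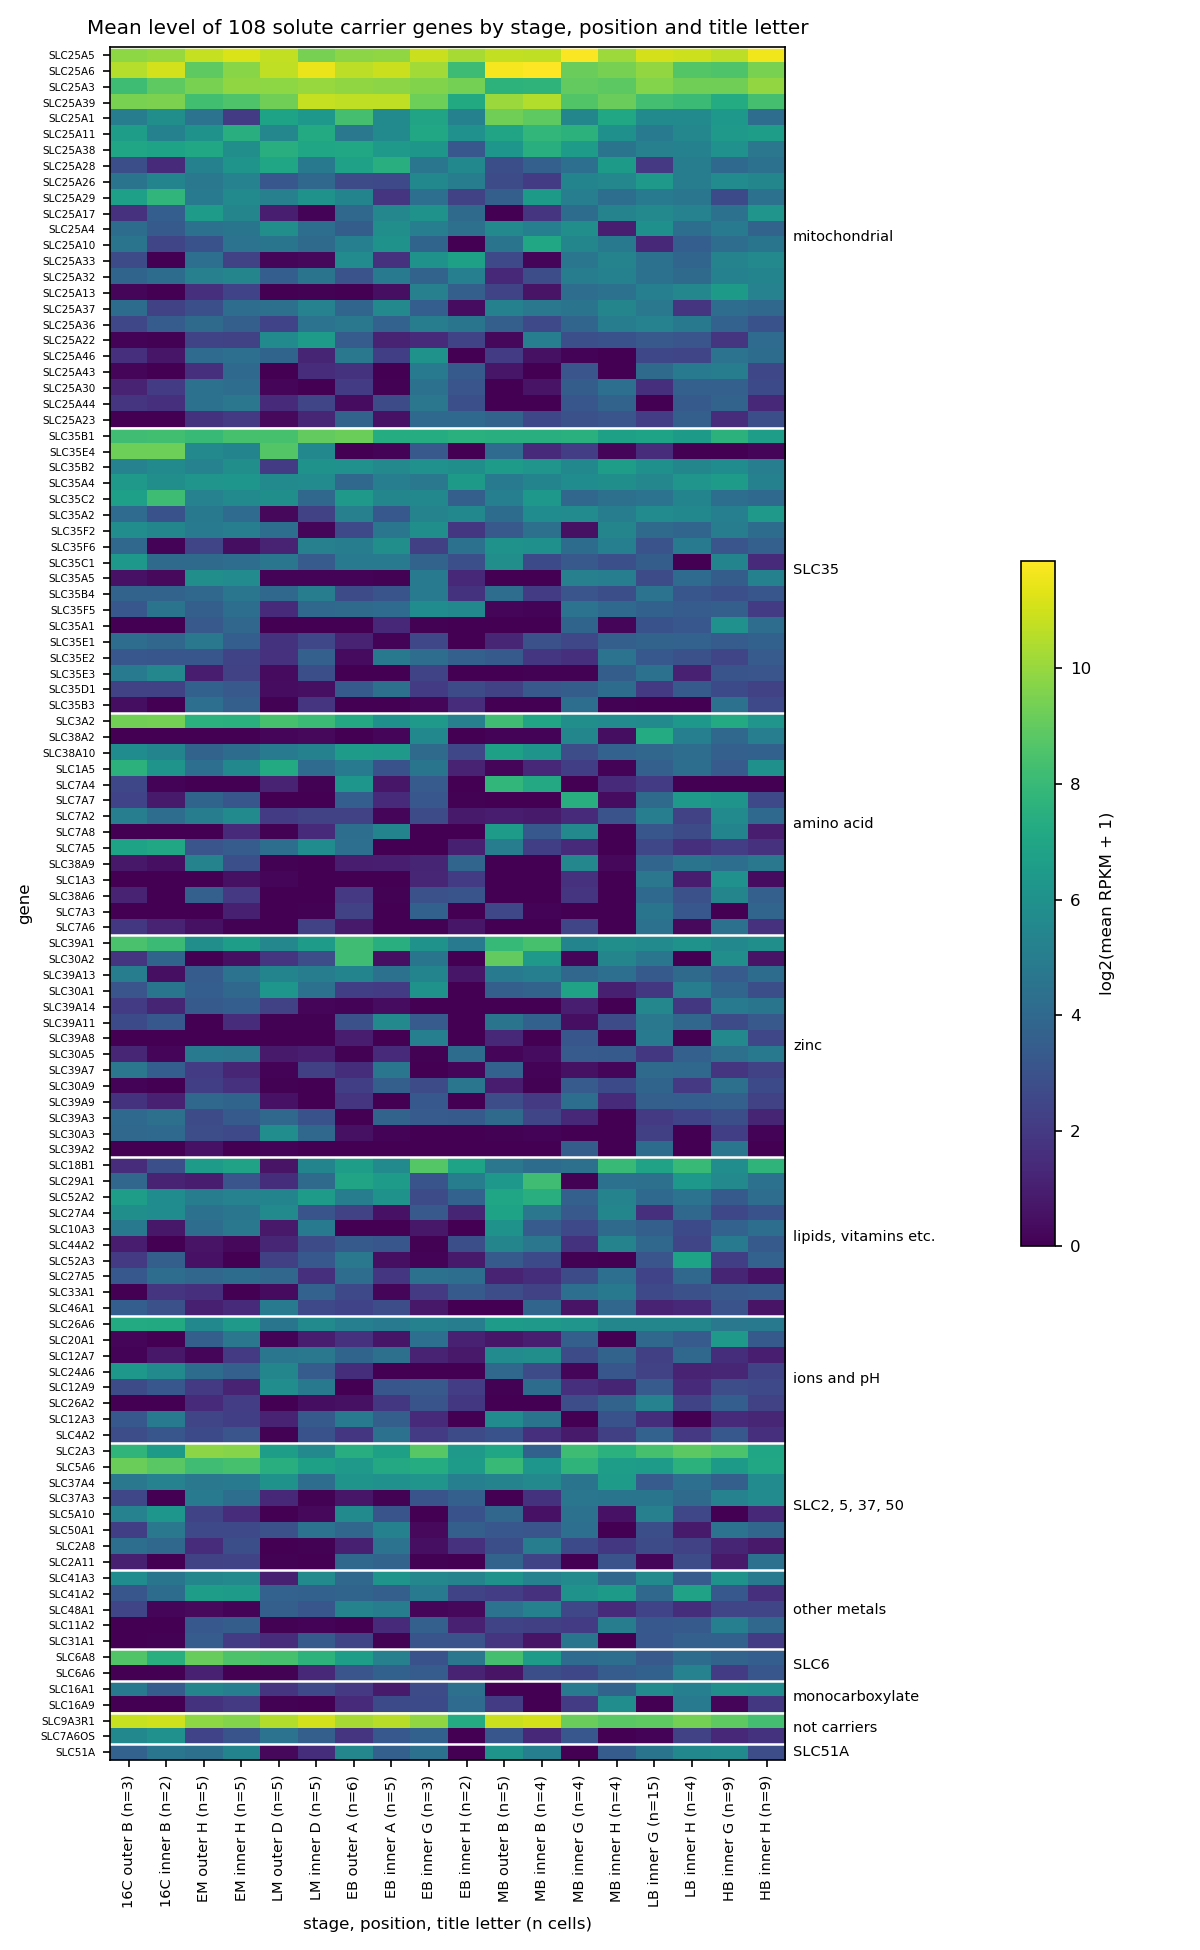
Mean level of 108 of the 110 genes (one line each, grouped by function) in the 18 groups of stage, position and title letter (columns), as log2(mean RPKM + 1) on the colour scale; EM and LM are early and late morula, and EB, MB, LB and HB early, middle, late and hatched blastocyst. The mitochondrial carriers SLC25A5, SLC25A6 and SLC25A3 are bright in all columns, while most genes vary between dark and bright from column to column, also between letters of the same stage.

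In each comparison a gene counted as measured when the mean of either side was at least 5 RPKM, and as higher or lower past a 2-fold ratio of the means after adding 1 RPKM to each, given as a log2 difference. This scale understates the change of low genes. A gene measured through only 1 side was under 5 RPKM on the other, which favours a call without forcing one. The counts are therefore read only against the same counts over all genes. Where a count under another scaling or setting has no such share beside it, it shows only how the reported count moved. Overlap between cells is stated for named genes only. Its share over all genes is not given, so no number of such genes is read as a result. In the stage comparison of letter B, each side's mean was the average of its outer mean and its inner mean, weighted equally.

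Among the largest stage differences were those of amino acid and monocarboxylate carriers and SLC35E4, a member of the SLC35 family without a settled substrate. Among cells of letter B, 81 of the 110 genes were measured between the 16-cell stage and the middle blastocyst: 23 were higher in the middle blastocyst, where 25.4% of all genes were, and 25 were lower, where 39% of all genes were. The median log2 difference was 0.04 for the solute carrier genes and -0.46 for all genes. Scaling each cell by the median of ratios over genes above 0 in all cells moved the median of all genes to 0.37. The split of the solute carrier genes became 36 higher and 19 lower. The shares of all genes under that scaling are not given, so this split is not read as a result.

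SLC1A5 encodes ASCT2, a sodium-dependent exchanger of glutamine and other neutral amino acids. Its level was 142, 171 and 268 RPKM in the 3 outer and 39 and 101 RPKM in the 2 inner 16-cell embryo cells. In the middle blastocyst it was at 0.0719 to 0.155 RPKM in the 5 outer cells and 0.0173, 0.0393, 0.101 and 5.83 RPKM in the 4 inner cells. No 16-cell value overlapped a middle blastocyst value, and the log2 difference was -6.21, or -5.99 without the outer 16-cell stage cell that mattered most. SLC35E4 was at 470, 558 and 790 RPKM in outer and 406 and 815 RPKM in inner 16-cell stage cells, against a range of 0.160 to 50.7 RPKM over the 9 middle blastocyst cells. Its log2 difference was -5.90, again with no overlap.

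The monocarboxylate carrier SLC16A1 (MCT1), which takes up lactate and pyruvate, was at 18.1, 24 and 37.9 RPKM in outer and 3.43 and 16.2 RPKM in inner 16-cell stage cells. All 9 middle blastocyst cells of letter B were at or below 0.0340 RPKM, which gave a log2 difference of -4.25. With letters G and H added, 6 of 17 middle blastocyst cells reached 1 RPKM, the highest at 61.0 RPKM. In the late blastocyst (letters G and H) 17 of 19 cells did. SLC35E3 differed in the same direction by -5.17, from a mean of 36 to 0.0241 RPKM. Beside them, the partner gene BSG, which encodes the chaperone of SLC16A1, had a mean of 1264 RPKM at the 16-cell stage and 493 RPKM in the middle blastocyst, a log2 difference of -1.36.

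Higher in the middle blastocyst of letter B were SLC7A4, SLC7A8, SLC12A7 and SLC30A2. SLC7A8 (LAT2), a light chain that exchanges large neutral amino acids, was at or below 0.0765 RPKM in all 5 16-cell stage cells. It was at 27.3, 35.9, 84.3, 113 and 202 RPKM in the 5 outer middle blastocyst cells and at 0.0623, 0.0725, 0.128 and 33.7 RPKM in the 4 inner ones. The log2 difference was 5.67. SLC12A7 (KCC4), a potassium and chloride cotransporter, had a mean of 53.9 RPKM in the middle blastocyst and 0.388 RPKM at the 16-cell stage (log2 difference 5.31), with 2 outer middle blastocyst cells at 0.229 and 1.17 RPKM. SLC7A4, a relative of the cationic amino acid carriers, differed by 5.75 and SLC30A2, a vesicular zinc exporter, by 5.08. In both, values spread widely, from 0.150 to 886 RPKM and from 0.460 to 1453 RPKM over the 9 middle blastocyst cells.

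Letter H allowed the inner cells of the early morula to be set against those of the middle blastocyst. Of 95 genes measured, 22 were higher and 37 lower in the middle blastocyst, against 22.8% and 34.2% of all genes. The median log2 difference was -0.34 for the solute carrier genes and -0.30 for all genes. With median-of-ratios scaling the all-gene median became 0.14 and the split 25 higher and 26 lower, and with equal totals the median was -0.63 and the split 17 and 42.

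Among 7 measured amino acid carrier genes, 6 were lower in the middle blastocyst and none higher, where 34.2% and 22.8% of all genes were. Their median log2 difference was -2.64. With median-of-ratios scaling, 4 of 5 were lower. SLC1A5 was at 24.8, 43.7, 51.5, 52.3 and 52.7 RPKM in the 5 inner early morula cells and at 0, 0.0313, 0.0443 and 0.283 RPKM in the 4 inner middle blastocyst cells. These groups did not overlap and differed by -5.40. SLC7A5 (LAT1), the other main light chain for large neutral amino acids, went from a mean of 9.77 to 0.00460 RPKM, its partner SLC3A2 from 183 to 52.6 RPKM, and the cationic amino acid carrier SLC7A2 from 49.2 to 7.16 RPKM. SLC38A10 differed by -0.43, which did not reach 2-fold.

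Among the other genes named by size of difference in letter H, SLC20A1, a sodium-dependent phosphate carrier, was at 3.70, 5.64, 16.2, 25 and 72.8 RPKM in the early morula, and at 0 in 3 and 0.0271 RPKM in 1 middle blastocyst cell (log2 difference -4.67). SLC35E4 was at 17.3, 21.6, 50.9, 51.1 and 57.1 RPKM in the early morula and at most 0.476 RPKM in the middle blastocyst (-5.13), as it was between the letter B stages. SLC25A46, an outer mitochondrial membrane protein of this family, differed by -4.34, but 2 of the 5 early morula cells carried the mean: without the highest, at 82.4 RPKM, the difference was -2.20.

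SLC25A1 was at 0.638, 0.782, 1.89, 6.17 and 6.19 RPKM in the early morula and at 6.87, 97.4, 127 and 316 RPKM in the middle blastocyst, a log2 difference of 5.06 without overlap. SLC44A2, a choline transporter-like protein, was at 0 in 4 and 1.02 RPKM in 1 early morula cell against 12.4, 21.5, 41.4 and 78.6 RPKM in the middle blastocyst (5.04). SLC33A1, which brings acetyl-CoA into the endoplasmic reticulum, was listed at 0 in all 5 early morula cells and was at 0.0162, 0.0164, 10.8 and 95.5 RPKM in the 4 middle blastocyst cells. SLC30A2 averaged 41 RPKM in the middle blastocyst, at 0.0258, 9.43, 13.3 and 141 RPKM, and 0.418 RPKM in the early morula (log2 difference 4.89, or 2.60 without the highest cell).

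The comparisons of letter B and letter H share no cell. Over the 74 genes measured in both, 11 were higher in the middle blastocyst in both, which is 55% of the 20 higher in letter B and 68.8% of the 16 higher in letter H. Over all genes these shares were 48.1% and 50.8%. Lower in both were 12 genes, 52.2% of 23 and 44.4% of 27, against 44.1% and 53.7% over all genes. Opposite directions were seen for 4 genes: SLC25A11, SLC25A4, SLC35E3 and SLC51A. These 4 were singled out after their values were seen.

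**Figure D2:**
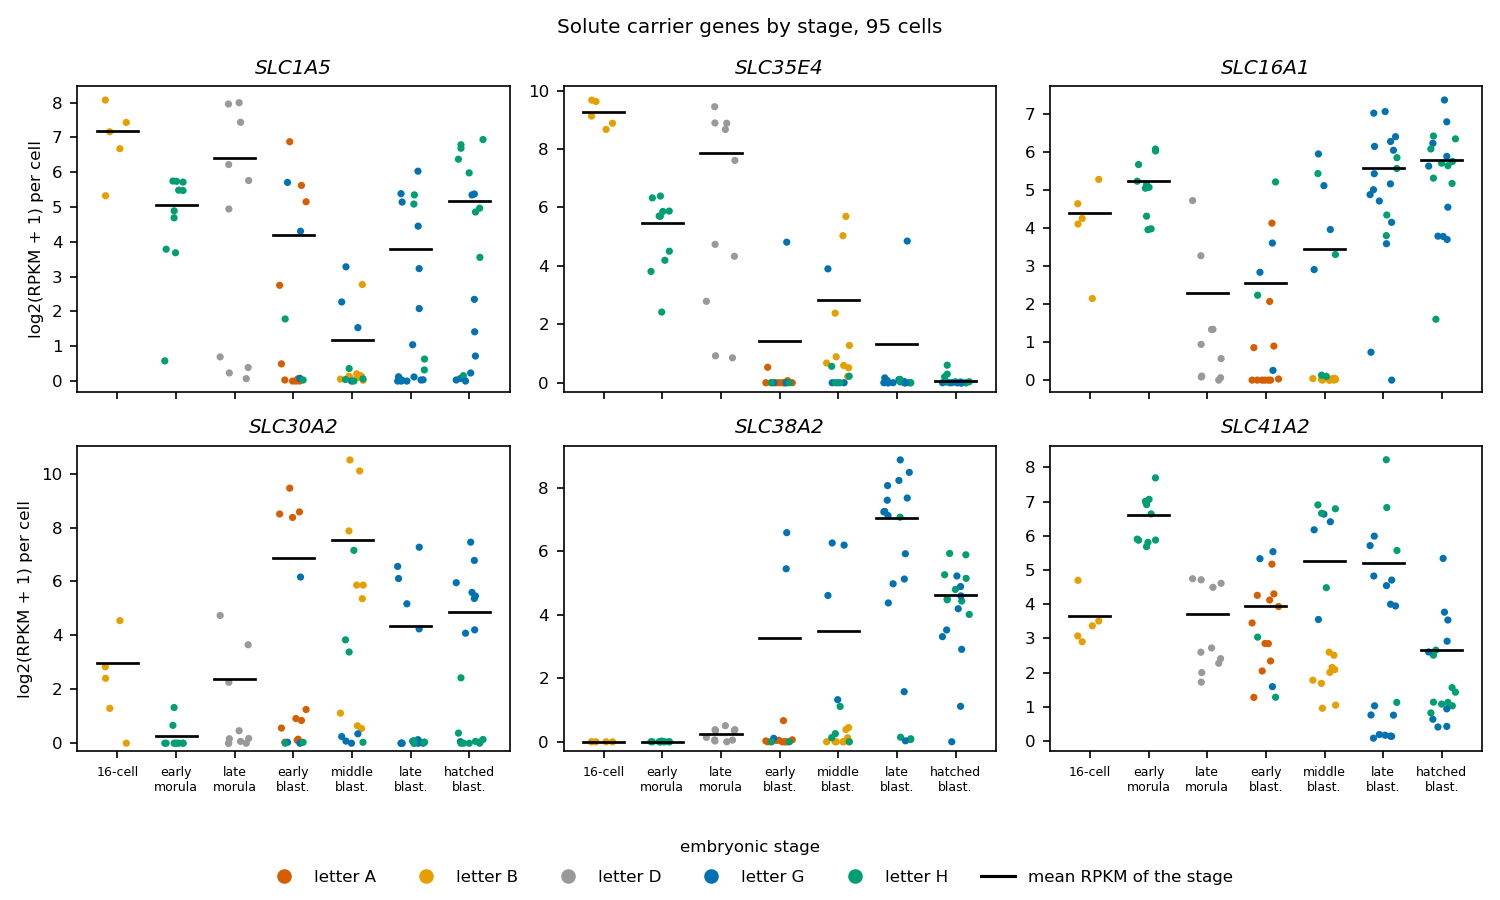
Level of 6 solute carrier genes in each of the 95 cells as log2(RPKM + 1), by stage, with points coloured by title letter and bars at the mean RPKM of the stage on that scale. In letter B, no middle blastocyst cell reaches a 16-cell stage value of SLC1A5, SLC35E4 or SLC16A1, and in letter H the hatched cells of SLC38A2 lie above and those of SLC41A2 below all middle blastocyst cells.

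From the middle to the hatched blastocyst, inner cells of letter H were compared through the same 4 middle blastocyst cells as in the step before, which the 2 comparisons share. Of 91 genes measured, 26 were higher in the hatched blastocyst, where 37.2% of all genes were, and 26 were lower, where 22.3% were. Median log2 differences were -0.04 for the solute carrier genes and 0.31 for all genes. Equal totals gave 0.72 for all genes and 33 solute carrier genes higher and 21 lower, and median-of-ratios scaling gave 0.15 with 21 and 24.

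Of 9 amino acid carrier genes measured, 7 were higher and none lower, where 37.2% and 22.3% of all genes were. Their median log2 difference was 3.61. With median-of-ratios scaling, 5 of 8 were higher. SLC1A5 ranged from 0.113 to 122 RPKM over the 9 hatched blastocyst cells with a median of 62.1 RPKM, against at most 0.283 RPKM in the middle blastocyst (5.82). Only the lowest hatched cell overlapped the middle blastocyst. SLC38A2 (SNAT2), a sodium-coupled carrier of small neutral amino acids known to be induced when amino acids are scarce, was at 0, 0.0929, 0.194 and 1.16 RPKM in the middle blastocyst. It ranged from 15.1 to 59.9 RPKM (median 26.7) in the hatched blastocyst, with no overlap and a log2 difference of 4.63. Among the 4 late blastocyst cells of letter H, 3 were at or below 0.104 RPKM and 1 was at 133 RPKM.

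SLC38A9, a lysosomal arginine carrier and sensor, differed by 4.5, with hatched cells between 0 and 79.2 RPKM. The cationic amino acid carrier SLC7A3 averaged 13.8 ± 16.6 RPKM (SD, n = 9 cells) in the hatched blastocyst and 0.0126 RPKM in the middle blastocyst. SLC3A2 differed by only 0.43. Of the list of 10 genes tied to the amino acid response, 9 were measured and all 9 were higher in the hatched blastocyst under each scaling, against the 37.2% of all genes above. They included the asparagine synthetase gene ASNS at a mean of 294 against 15.6 RPKM, the serine synthesis gene PHGDH at 117 against 5.72 RPKM, and ATF4, the transcription factor of that response, at 1028 against 312 RPKM. The list was chosen with earlier results of these data known. Elsewhere its genes higher and lower were 0 and 5 of 8 for outer morula cells, and 2 and 3 of 6 and 1 and 1 of 4 for outer early and middle blastocyst cells. By stage they were 1 and 3 of 6 (letter B) and 2 and 4 of 9 (early morula to middle blastocyst, letter H). Against epiblast-like cells they were 4 and 0 of 9 (trophectoderm-like) and 3 and 4 of 8 (hypoblast-like). For letters they were 4 and 1 of 7. The shares over all genes are given with each of these comparisons.

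SLC39A14 (ZIP14), which imports zinc and other divalent metals, was at 0 in 3 and 0.0113 RPKM in 1 middle blastocyst cell and between 6.15 and 45.9 RPKM (median 25.7) in the hatched blastocyst. Its log2 difference was 4.62 and the groups did not overlap. Among genes lower in the hatched blastocyst, SLC41A2, a magnesium carrier, was at 21.3, 99.8, 110 and 119 RPKM in the middle blastocyst and 0.769 to 5.31 RPKM (median 1.2) in the hatched blastocyst (-4.83). SLC16A9, a relative of the monocarboxylate carriers, was at 34.2, 59.1, 64.0 and 66.0 RPKM against 0 to 14.7 RPKM (-3.90). SLC27A5, a fatty acid and bile acid CoA ligase of the SLC27 family, was at 9.56, 13.3, 17.2 and 37.1 RPKM against 0 to 2.05 RPKM (-3.78). SLC41A2, SLC16A9 and SLC27A5 each had no overlap between the groups. SLC30A2 was lower by -4.77, or by -2.48 without the middle blastocyst cell at 141 RPKM.

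Markers of lineage moved along the same step. NANOG, an epiblast factor, ranged from 4.45 to 160 RPKM in the 4 middle blastocyst cells and from 285 to 1064 RPKM in the 9 hatched ones, and GATA4 and SOX17, hypoblast factors, stayed at or below 0.312 RPKM in both. GATA3, a trophectoderm factor, had a median of 1.57 RPKM in the middle and 0.0168 RPKM in the hatched blastocyst. The part of lineage in the differences above was not tested.

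Metallothioneins, small proteins that bind zinc and other metals, and the iron storage gene FTH1 were set beside the zinc carriers through a list of 11 metal genes. In letter B, 8 of 10 measured were higher in the middle blastocyst than at the 16-cell stage, where 25.4% of all genes were. In letter H, 8 of 11 were higher in the middle blastocyst than in the early morula, where 22.8% of all genes were. From middle to hatched blastocyst of letter H, 9 of 10 were lower and none higher, where 22.3% and 37.2% of all genes were. MT2A averaged 13.3 RPKM in the inner early morula, 4361 RPKM in the inner middle blastocyst and 1059 RPKM in the hatched blastocyst of letter H. Metallothionein genes are near-identical copies, so the split of reads between them is uncertain and their counts are not independent. The metal list was chosen with earlier results of these data known. Elsewhere its genes higher and lower were 0 and 5 of 9 for outer morula cells. They were 0 and 2 of 9 and 1 and 1 of 9 for outer early and middle blastocyst cells. For hypoblast-like against epiblast-like cells they were 4 and 6 of 11, and for letters 3 and 1 of 10. Of 11 zinc carrier genes measured between early morula and middle blastocyst in letter H, 2 (18.2%) were higher and 6 (54.5%) lower, where 22.8% and 34.2% of all genes were. Of 8 measured in the next step, 3 (37.5%) were higher and 1 (12.5%) lower, where 37.2% and 22.3% of all genes were.

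Outer and inner cells of the morula stages were compared with the stages averaged and then 1 by 1. Over 13 outer and 12 inner cells from the 16-cell stage to the late morula, with stages weighted equally, 88 genes were measured. In outer cells 6 were higher and 8 lower, against 13.5% and 9.88% of all genes, and median-of-ratios scaling gave 7 and 5. At the 16-cell stage alone 17 were higher and 10 lower of 72 measured (24% and 20.6% of all genes), in the early morula 8 and 9 of 80 (16.1% and 9.12%), and in the late morula 18 and 27 of 69 (31.2% and 26.9%). All genes named here overlapped between outer and inner cells. SLC1A5 averaged 121 RPKM in outer and 44 RPKM in inner cells, a log2 difference of 1.44. By stage that difference was 1.45 at the 16-cell stage, -1.17 in the early morula and 3.08 in the late morula. In the late morula it was at 0.309, 73.5, 172, 248 and 254 RPKM in outer cells and at 0.0495, 0.176, 0.617, 29.7 and 53.2 RPKM in inner cells.

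SLC35C1, the GDP-fucose carrier of the Golgi, was higher in outer cells by 1.41, and by 0.77 without 1 outer 16-cell stage cell. It differed by -0.15 in the early morula. SLC38A9 (2.09) and the mitochondrial pyrimidine nucleotide carrier SLC25A33 (1.99) were also higher in outer cells with the stages averaged. At the 16-cell stage, early morula and late morula, SLC38A9 differed by 0.27, 2.40 and 0.04, and SLC25A33 by 2.72, 2.07 and -0.13. Lower in outer cells were SLC25A43 (-1.96), the sugar transporter SLC50A1 (-1.60), SLC30A2 (-1.52) and the sodium chloride cotransporter SLC12A3 (-1.39). Without 1 inner cell each, the last 3 came to -0.91, -0.79 and -0.47, short of 2-fold. By stage, in the order above, SLC25A43 differed by 0.23, -2.44 and -1.46, and SLC50A1 by -2.54, -0.01 and -1.58. SLC30A2 differed by -2.02, -0.50 and -1.03, and SLC12A3 by -1.68, 0.29 and -2.21. SLC38A9 and SLC25A43 reached the 5 RPKM line only in the early morula.

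In the early blastocyst of letter A, 6 outer and 5 inner cells were compared. The outer cells carried higher levels of 6 of the 12 measured trophectoderm markers and lower levels of 2. GATA3 averaged 188 RPKM in outer and 10.9 RPKM in inner cells, but the lowest outer cell was at 0.542 RPKM. Of 78 solute carrier genes measured, 22 were higher and 24 lower in outer cells, against 29% and 32.7% of all genes. Median log2 differences were 0.04 and -0.11, the latter 0.03 with median-of-ratios scaling.

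The largest difference was in SLC30A2. The 6 outer cells ranged from 0.794 to 703 RPKM with a median of 346, 4 of them at 331 RPKM or more, while the 5 inner cells were at 0.0256, 0.0791, 0.110, 0.477 and 1.38 RPKM. The log2 difference was 7.72, and at least 7.26 without any 1 cell. The 2 lowest outer cells fell inside the range of the inner cells. SLC7A4 had a median of 9.58 RPKM and a highest value of 318 RPKM in outer cells and was at or below 2.34 RPKM in inner cells (5.53). SLC7A5 ranged up to 72.5 RPKM in outer cells, with 3 at or below 0.237 RPKM, and stayed at or below 0.0862 RPKM in inner cells (4.32). SLC52A3, a riboflavin carrier, differed by 4.24 but by 0.61 without 1 outer cell at 149 RPKM.

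Lower in outer cells were SLC35E2 (-4.44), the glucose transporter family member SLC2A8 (-3.46) and SLC39A3 (-3.77). For SLC39A3, 1 inner cell at 60.2 RPKM decided the size, and the difference was -1.02 without it. The difference of SLC2A8 came to -1.99 without 1 inner cell at 79.6 RPKM. The symbol SLC35E2 covers near-identical copies in primates, so its reads are uncertain.

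In the middle blastocyst of letter B, 5 outer and 4 inner cells were compared, and 10 of 13 measured trophectoderm markers were higher and 1 lower in the outer cells. Of 75 solute carrier genes, 25 were higher and 15 lower in outer cells, against 36.3% and 24.7% of all genes. Median log2 differences were 0.36 and 0.33, and equal totals moved that of all genes to 0.52.

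SLC7A8, whose values are given above, was higher in outer cells by 3.30. Of its 4 inner cells, 1 lay within the outer range. The mannose and fructose carrier SLC5A10 (3.32) and SLC2A3 (3.25) were also higher. The outer cells split widely for SLC2A3, from 1.28 to 326 RPKM. For SLC39A7, an endoplasmic reticulum zinc carrier, a difference of 3.62 became -0.05 without 1 outer cell at 60.6 RPKM.

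Among the genes named as lower in outer cells of the middle blastocyst, SLC25A22 and SLC46A1 did not overlap between positions. SLC25A22, a mitochondrial glutamate carrier, was at 0.113 to 0.249 RPKM in the 5 outer cells and at 4.73, 39.9, 40.2 and 46.7 RPKM in the 4 inner cells (-4.84). SLC46A1, the proton-coupled folate carrier, was at or below 0.0532 RPKM against 0.2, 11.9, 16.9 and 25.6 RPKM (-3.83). SLC12A9 differed by -4.09 with overlap.

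The early and middle blastocyst comparisons share no cell. Of 68 genes measured in both, 10 were higher in outer cells in both, 55.6% of the 18 in the early and 47.6% of the 21 in the middle blastocyst. The shares over all genes were 39.5% and 33.2%. They included SLC30A2, SLC7A5, SLC3A2, SLC6A8, SLC12A3 and SLC5A10. Lower in both were 5 genes, 25% of 20 and 35.7% of 14, against 29.2% and 34.4% over all genes, and 9 genes had opposite directions, 13.2% of the 68 against 15.6% over all genes. SLC30A2 averaged 521 RPKM in the outer and 83.0 RPKM in the inner cells of the middle blastocyst, at 0.460, 0.567, 57.2, 1095 and 1453 RPKM against 1.17, 40.1, 57.3 and 234 RPKM, so these groups overlapped. SLC25A22 and SLC7A8 were among the 9 with opposite directions.

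All late and hatched blastocyst cells were titled inner, yet lineage markers divided those of letter G. Their 24 cells were clustered on genes that exclude every solute carrier gene and the clusters named by markers. A set of 13 trophectoderm-like cells comprised 8 hatched cells, with 12 of 15 trophectoderm markers above the other cells, and 5 late cells, with 11 of 15. These 5 are the letter G cells whose stage labels conflict. A set of 7 epiblast-like cells, all late, had 10 of 10 epiblast markers above, and 4 hypoblast-like cells (3 late, 1 hatched) had 16 of 17 hypoblast markers above. GATA3 ranged from 101 to 618 RPKM in trophectoderm-like cells and reached at most 24 RPKM in the others. SOX17 ranged from 90.2 to 259 RPKM in hypoblast-like cells and stayed at or below 0.290 RPKM in the others. POU5F1, which encodes the pluripotency factor OCT4, ranged from 3727 to 9054 RPKM in epiblast-like cells and reached at most 171 RPKM in the others.

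Of 95 genes measured, 44 (46.3%) were higher in trophectoderm-like than in epiblast-like cells, where 34.1% of all genes were, and 16 (16.8%) were lower, where 19.6% of all genes were. Median log2 differences were 0.86 for the solute carrier genes and 0.32 for all genes, and equal totals moved that of all genes to 0.52. The number of all genes reaching 1 RPKM had a median of 6225 in the 8 hatched and 3155 in the 5 late trophectoderm-like cells, against 4102 in the epiblast-like cells, and its part in the counts was not tested. With the 5 late cells alone, 40 were higher and 25 lower of 89 measured, where 30.7% and 31.4% of all genes were. Stage differed too, since the epiblast-like cells were all late.

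The vesicle zinc carrier gene SLC30A2 had the largest log2 difference of the 110 genes between trophectoderm-like and epiblast-like cells. It ranged from 15.9 to 175 RPKM (median 47.2) over the 13 cells, while the highest of the 11 other cells was at 0.0955 RPKM. Every trophectoderm-like cell therefore lay above every other cell, with a log2 difference of 6.06 against the epiblast-like mean. SLC39A2 (ZIP2), a zinc importer of the plasma membrane, reached 1 RPKM in 7 of 13 trophectoderm-like cells, with a median of 2.05 and a highest value of 171 RPKM, and was listed at 0 in all 11 others. SLC39A8 (ZIP8), an importer of zinc and manganese, averaged 60.6 ± 96.9 RPKM (SD, n = 13 cells) in trophectoderm-like, 1.26 RPKM in epiblast-like and 10.1 RPKM in hypoblast-like cells. In all, 6 of 12 measured zinc carrier genes (50%) were higher than in epiblast-like cells and 1 was lower, where 34.1% and 19.6% of all genes were. Of the metal list, 2 of 10 were higher and 7 lower, the metallothionein MT2A at a mean of 29.1 RPKM against 2013 RPKM.

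Of 17 measured SLC35 genes, 9 (52.9%) were higher and 1 (5.88%) lower in trophectoderm-like cells, where 34.1% and 19.6% of all genes were. SLC35C1 ranged from 2.81 to 116 RPKM (median 29.1) over the 13 cells, stayed at or below 0.106 RPKM in the 7 epiblast-like cells, and was at 0, 0, 0 and 3.58 RPKM in the 4 hypoblast-like cells. The log2 difference from the epiblast-like cells was 5.29, without overlap. SLC35A1, the CMP-sialic acid carrier, had a median of 29.4 and a highest value of 120 RPKM against at most 0.0369 RPKM in epiblast-like cells (5.53). The lowest 3 of the 13 cells lay within the epiblast-like range. SLC35F2, SLC35F5, SLC35B3, SLC35B4 and SLC35D1 had log2 differences between 3.03 and 4.71. Among the 5 late cells, 1 reached 1 RPKM for SLC35A1, 0 for SLC35B3, 4 for SLC35F2, and 2 each for SLC35F5, SLC35B4 and SLC35D1. Among the 8 hatched cells these numbers were 8, 6, 8, 4, 3 and 6. The part of stage was not tested. SLC35A2, the UDP-galactose carrier, differed the other way by -1.08, from a mean of 73.2 RPKM in epiblast-like to 34 RPKM in trophectoderm-like cells.

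Of 13 measured amino acid carrier genes, 8 (61.5%) were higher and 3 (23.1%) lower in trophectoderm-like than in epiblast-like cells, where 34.1% and 19.6% of all genes were. SLC1A3 (EAAT1), a glutamate and aspartate transporter, reached 1 RPKM in 12 of 13 trophectoderm-like cells, with a median of 39.9 and a highest value of 213 RPKM, and stayed at or below 0.0541 RPKM in epiblast-like cells (5.61). SLC38A6 (5.49) and SLC7A6 (y+LAT2, 3.77), which exchanges cationic for neutral amino acids, were also higher. SLC38A6 reached 1 RPKM in 1 of the 5 late and 6 of the 8 hatched trophectoderm-like cells. SLC7A6 reached 1 RPKM in 12 of 13 cells, 10 of which lay above all other cells. SLC7A6 and SLC7A6OS neighbour each other in the RefSeq annotation, and reads of overlapping genes cannot be told apart where counting ignores strand.

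The 3 lower ones were SLC7A3, SLC38A2 and SLC1A5. SLC7A3 was at 0, 0, 0.257, 12.3, 26.3, 158 and 159 RPKM in the 7 epiblast-like cells and at most 0.307 RPKM in the 17 others (-5.63). It was therefore high in 4 epiblast-like cells and at or below 0.257 RPKM in 3. SLC38A2 averaged 158 ± 142 RPKM (SD, n = 7 cells) in epiblast-like and 39.4 ± 52.1 RPKM (n = 13) in trophectoderm-like cells (-1.98). SLC1A5 differed by -1.49 and overlapped.

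The difference of SLC2A8 in this comparison, -2.12, came to 0.45 without 1 epiblast-like cell at 61.4 RPKM.

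Among mitochondrial carriers, 11 of 25 (44%) were higher and 5 (20%) lower in trophectoderm-like than in epiblast-like cells, where 34.1% and 19.6% of all genes were. SLC25A43, whose substrate is not settled, differed by 5.01 (means 35.8 and 0.139 RPKM) and SLC25A46 by 4.13. SLC25A43 reached 1 RPKM in 4 of the 5 late and 7 of the 8 hatched trophectoderm-like cells, and SLC25A46 in 1 and 7. The genes SLC25A43 and SLC25A5 also neighbour each other in the RefSeq annotation, and the part of shared reads was not tested. SLC25A39 differed by -1.85, with epiblast-like cells between 213 and 715 RPKM and trophectoderm-like cells between 0.598 and 254 RPKM. The abundant SLC25A5, SLC25A6 and SLC25A3 stayed within 2-fold, at -0.34, -0.55 and -0.59.

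Of 13 measured partner genes of the carriers, 5 (38.5%) were higher and 2 (15.4%) lower in trophectoderm-like cells, close to the 34.1% and 19.6% of all genes. MPC1, a subunit of the mitochondrial pyruvate carrier, averaged 44.8 against 0.528 RPKM, while its partner MPC2 averaged 13.7 against 48.9 RPKM. ATP1B1, a subunit of the sodium pump that drives many of these carriers, averaged 26.5 against 1.34 RPKM.

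Hypoblast-like and epiblast-like cells were compared over 91 genes, of which 35 were higher and 23 lower in the hypoblast-like cells, against 33.1% and 30.6% of all genes. Median log2 differences were 0.38 and 0.05. Median-of-ratios scaling moved that of all genes to 0.48 and equal totals to 0.38. With 4 hypoblast-like cells, single cells set several of the means.

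SLC26A2, the sulfate carrier, separated the hypoblast-like cells. It was at 70.2, 106, 161 and 209 RPKM in these 4 cells, at most 52.6 RPKM in the 7 epiblast-like cells and at most 7.91 RPKM in the 13 trophectoderm-like cells. SLC26A6, an anion exchanger for chloride, bicarbonate and oxalate, was at 0.0194, 0.0680, 0.149 and 0.387 RPKM in hypoblast-like cells and at 15.6, 15.8, 17.7, 42.0, 61.3, 82.3 and 126 RPKM in epiblast-like cells, a log2 difference of -5.50. Neither gene overlapped between these lineages, and SLC25A1 and SLC35B1, both higher in hypoblast-like cells, narrowly did not. The lowest hypoblast-like and highest epiblast-like cells were at 77.5 and 77.2 RPKM for SLC25A1 and at 178 and 174 RPKM for SLC35B1. The trophectoderm-like cells ranged from 0.0304 to 246 RPKM for SLC26A6 and overlapped both.

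SLC5A10 was at 0.0225, 13.8, 43.1 and 447 RPKM in hypoblast-like cells and above 1 RPKM in 1 epiblast-like cell, at 10.4 RPKM (5.67, or 3.00 without the highest cell). SLC39A7 was at 0, 1.24, 93.8 and 103 RPKM in hypoblast-like cells (4.77), and SLC7A8 differed by 5.54 with 1 hypoblast-like cell at 0. SLC1A3 was at 0, 0.0909, 28.4 and 285 RPKM, and its log2 difference of 6.28 became 3.36 without the single hatched cell. Lower in hypoblast-like cells were SLC7A3 (-5.67), the nucleoside carrier SLC29A1 (-5.18) and SLC39A14 (-5.07). SLC39A14 was at or below 1.55 RPKM in hypoblast-like cells and had a median of 53.7 RPKM in epiblast-like cells, of which the lowest was at 0.0132 RPKM.

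Of 104 genes with a mean of at least 5 RPKM in at least 1 lineage, 13 (12.5%) had a mean at least 4-fold above that of both other lineages in the trophectoderm-like cells, where 8.82% of all genes did. In the hypoblast-like cells 5 (4.81%) did, against 6.96% of all genes, and in the epiblast-like cells 2 (1.92%), against 5.21%. Besides those above, the trophectoderm-like set held SLC44A2, which was at 8.93 RPKM or more in all 13 cells, and the mitochondrial carriers SLC25A10, SLC25A32 and SLC25A44. In SLC25A44 only 5 of the 13 cells reached 1 RPKM, in SLC35B4 5 and in SLC35B3 6. The cells at 1 RPKM were all hatched for SLC25A44 and SLC35B3, while for SLC35B4 2 were late and 3 hatched. In the hypoblast-like set, SLC20A1 and SLC52A3 rested on 1 cell each. The mean of SLC20A1 was 156 RPKM with and 5.20 RPKM without a hatched cell at 607 RPKM, and that of SLC52A3 was 23.0 RPKM with and 0.0574 RPKM without a late cell at 92.0 RPKM. Without those cells both were lower than in another lineage. The epiblast-like set included SLC7A3.

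**Figure D3:**
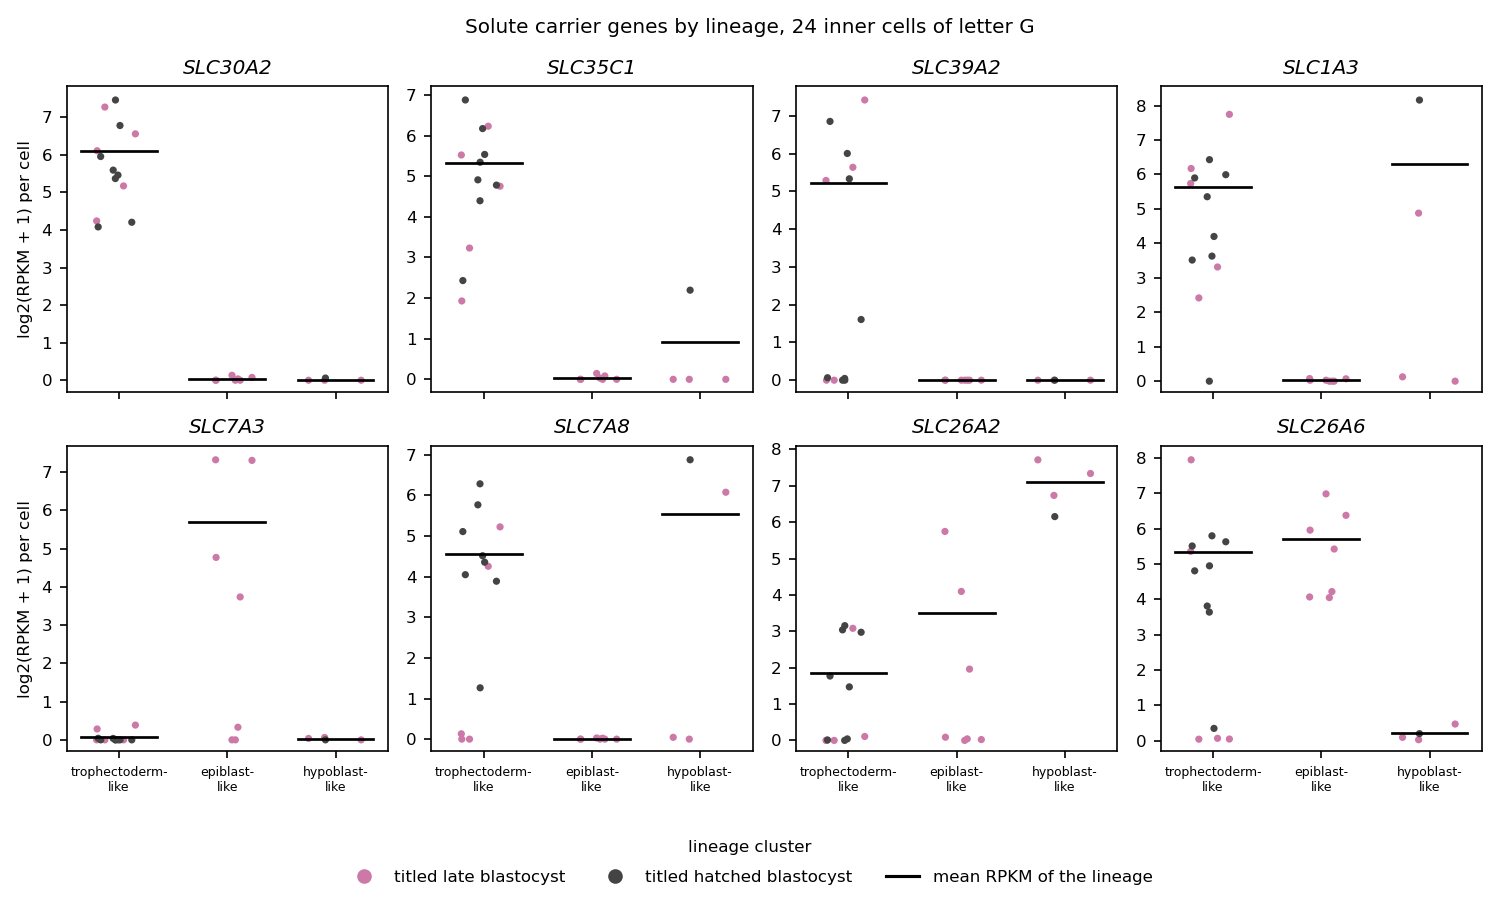
Level of 8 solute carrier genes in the 24 inner cells of letter G as log2(RPKM + 1), by lineage cluster, with points coloured by the stage in the title and bars at the mean RPKM of the lineage on that scale. All 13 trophectoderm-like cells lie above all others for SLC30A2, and all 4 hypoblast-like cells do for SLC26A2 and lie below all epiblast-like cells for SLC26A6.

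Differences by title letter were measured at matched position but not at matched stage. From the early and middle blastocyst, 13 inner cells (letters G, H) were set against 9 inner cells (letters A, B), with stages pooled. Early blastocyst cells were 3 (G), 2 (H) and 5 (A), and middle blastocyst cells 4 (G), 4 (H) and 4 (B). Letter and stage mix cannot be told apart in these values. Of 96 genes measured, 31 were higher and 30 lower in G and H, against 45.3% and 24.8% of all genes, with medians of -0.03 and 0.69. Median-of-ratios scaling moved the median of all genes to 0.07 and equal totals to 0.56. SLC7A7 (4.92), SLC35A5 (4.8), SLC25A33 (4.51) and SLC38A2 (4.49) were higher in G and H, and SLC7A4 (-4.13), SLC29A1 (-3.74), SLC39A7 (-3.59) and the heme carrier SLC48A1 (-3.50) were lower. All of these overlapped. Without 1 cell each, SLC39A7 came to 0.17 (a letter A cell at 120 RPKM) and SLC7A4 to -2.44 (a letter B cell at 420 RPKM). SLC38A2 had a median of 1.16 RPKM and a highest value of 94.7 RPKM in G and H and was at or below 0.586 RPKM in A and B. The source of these differences was not tested.

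**Figure D4:**
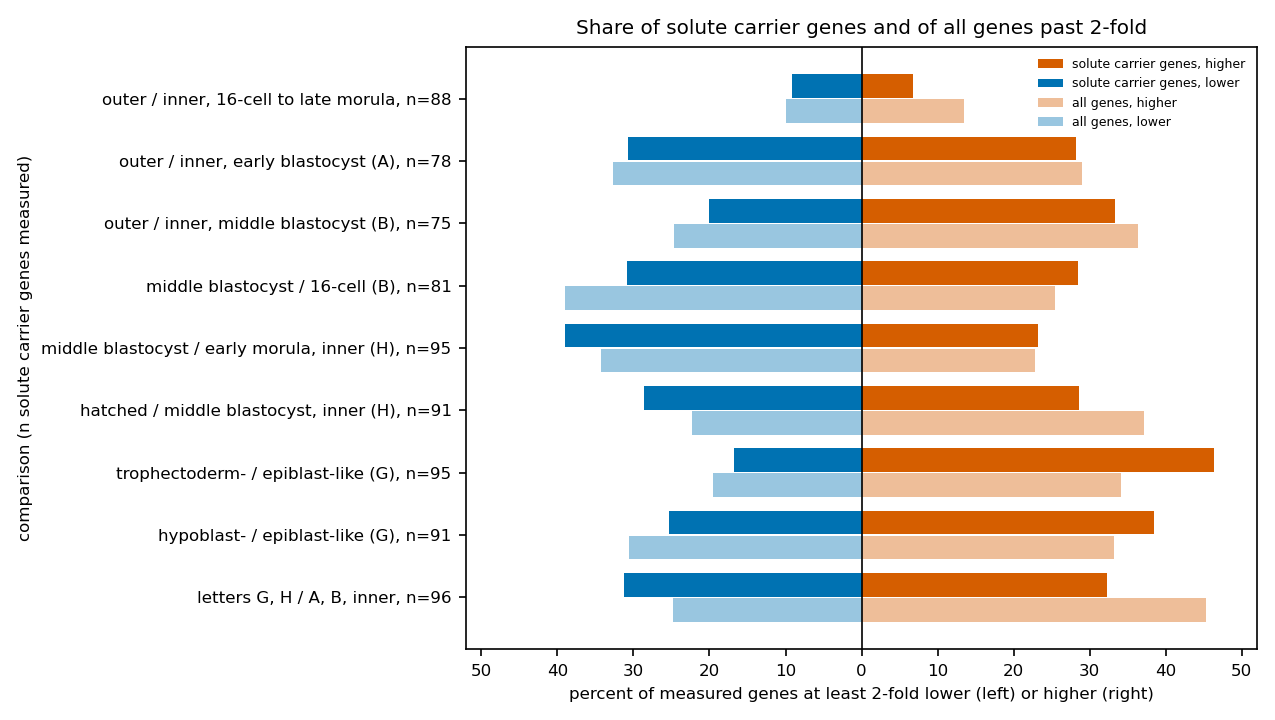
Percent of measured genes at least 2-fold higher (right) or lower (left) in the first-named side of the 9 comparisons, for the solute carrier genes (solid bars) and all genes (pale bars), with letters in brackets. The longest solute carrier bar is that of genes higher in trophectoderm-like than in epiblast-like cells, 46.3% against 34.1% of all genes.

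Similarity of pattern was described by Spearman's rho over the 18 group means of stage, position and letter. The groups share letters and depth, so no test was made. Over the 5995 pairs of genes the median rho was 0.01. The pairs most alike were SLC25A39 with SLC25A6 (0.91), SLC25A6 with SLC9A3R1 (0.88), SLC25A30 with SLC35A5 (0.88), SLC20A1 with SLC25A43 (0.87) and SLC11A2 with SLC25A13 (0.85).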

How the data were processed

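The deposited table holds 1 RPKM value per gene and cell, made by the authors. The submitters' processing notes name FastQC, TopHat2 2.1.0, HTSeq and DESeq2 without saying what each was used for. The genome build and annotation are not given in the sources used here. Reads were 100-base single-end, per the labels' protocols. All 95 columns matched sample titles.

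Reads were recovered from the steps of low values: 10761 genes (67.1%) gave whole reads, to within 0.05 of a read for values under 50 reads. The megareads per cell sum these genes only. Level ratios used group means plus a pseudocount of 1 RPKM, genes with a mean of at least 5 RPKM on either side and a 2-fold line. Letter G late and hatched cells were clustered (Ward linkage, 10 principal components, the 1000 most variable of 5709 genes at 10 RPKM in 5 cells or more). The number of clusters, 4, was chosen after seeing the data, because 3 joined the 5 late trophectoderm-like cells to the hypoblast-like ones. Clusters were named when at least 3 and 50% of a lineage's markers were at least 1 log2 unit above the other cells.

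Named genes were the 12 highest means, up to 4 genes in each direction per comparison with the largest differences, genes 4-fold above both other lineages, 3 on each side of the 5 RPKM line and the 5 most alike pairs. Members and lists were chosen with earlier results of these data known. RefSeq names (T2T-MMU8v2.0) matched 108 of the 110 genes by symbol or synonym. Scripts were checked on simulated data. Python 3.11.15, numpy 2.4.6, pandas 2.3.3 and scipy 1.17.1 were used. Alternatives changed the pseudocount, filter, fold, average, scaling, clusters, letters and cells. Values of 2 of the 110 genes are not reported here by name; both stay in the counts.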

Additional observations from a re-analysis of the deposited data

Results flagged for a closer look

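Summed levels of function classes were screened for single cells far from the rest of their group, in 117 sets of 4 to 10 cells. Dixon's outlier rule was used, at a level of 1 in 20 for independent, normally distributed values, and 10 sets were picked. The sums are not independent, since that over all genes contains the others, so the 10 cannot be read against that level. The summed level of all 110 genes was 10695.7 RPKM in the inner middle blastocyst cell G-02, against 7130 to 7733 RPKM in its group.

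For amino acid carriers, the inner early morula cell H-04 was low at 123 RPKM (others 343 to 427), and the outer late morula cell D-01 was low at 140 RPKM (others 558 to 727). The outer early morula cell H-02 was high at 531 RPKM (others 248 to 299), as was the late blastocyst cell H-14 at 552 RPKM (others 168 to 216).

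For ions and pH, high cells were the hatched blastocyst cell G-14 at 678 RPKM (others 19.7 to 111), which was hypoblast-like while the other 8 of its group were trophectoderm-like, the late blastocyst cell H-14 at 155 RPKM (others 71.1 to 81.3) and the outer middle blastocyst cell B-01 at 759 RPKM (others 103 to 171). SLC35 genes summed to 867 RPKM in the inner middle blastocyst cell G-10 (others 323 to 400). Carriers of metals other than zinc summed to 217 RPKM in the outer early blastocyst cell A-06 (others 6.29 to 80.3).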

How the results depend on the processing

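No paired analysis was possible because no label ties cells of different groups to 1 embryo and no test was made. Of 196 counts under another setting, 154 stayed within 1.5 times the reported count. Counts are given as solute carrier genes higher, then lower. The shares of all genes under these settings are not given in this section, so the counts show only how the reported ones moved.

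A 4-fold line gave, by its construction, fewer: 1 and 0 for position in the morulae, 14 and 13 in the early blastocyst, 12 and 8 in the middle blastocyst, 14 and 13 from 16-cell to middle blastocyst, 11 and 21 from early morula to middle blastocyst, 14 and 9 to the hatched blastocyst, 26 and 3 for trophectoderm-like against epiblast-like cells, and 12 lower for letters. A minimum mean of 20 RPKM likewise gave 3 and 2 in the morulae, 12 higher in the middle blastocyst, 16 lower from the 16-cell stage, 22 lower from the early morula, 12 and 16 to the hatched blastocyst, 24 and 10 for trophectoderm-like cells, 18 and 10 for hypoblast-like cells and 13 higher for letters. For the other changed counts the cause was not tested. Medians over cells gave 14 higher in the morulae, 15 lower in the early blastocyst, 11 and 27 in the middle blastocyst and 22 higher in hypoblast-like cells. A pseudocount of 5 RPKM gave 1 lower in the morulae and 16 higher in the middle blastocyst. Median-of-ratios scaling gave 5 lower in the morulae and 36 higher from the 16-cell stage. All letters pooled gave 37 lower for position in the middle blastocyst and 35 higher from the 16-cell stage. The 16-cell stage alone gave 17 higher, and the late morula alone 18 and 27. The late trophectoderm-like cells alone, added after seeing the data, gave 25 lower.

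Leaving out each cell in turn gave 5 to 10 and 7 to 10 in the morulae, 20 to 27 and 20 to 26 in the early blastocyst, 22 to 29 and 13 to 20 in the middle blastocyst, 24 to 28 and 23 to 30 from the 16-cell stage, 18 to 27 and 33 to 42 from the early morula, 23 to 30 and 22 to 28 to the hatched blastocyst, 41 to 46 and 13 to 18 for trophectoderm-like cells, 30 to 39 and 21 to 27 for hypoblast-like cells, and 29 to 34 and 26 to 33 for letters. In the morulae, 10 higher came without early morula cells H-05 (outer) or H-08 (inner) or the inner 16-cell stage cell B-02. Among genes measured under each setting, directions reversed for SLC1A5 (-1.17) and SLC35C1 (-0.15) in the early morula alone. SLC2A3 (-0.42) reversed in the middle blastocyst with all letters. Among gene values under settings other than leaving out 1 cell, 569 were counted as the same, 100 as moved and 3 as reversed. A move can be a change of size alone. Of the 100 moves, 47 came with a pseudocount of 5 RPKM. Another 22 came with 0.1 RPKM, which can only enlarge a difference.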
